A study of Mus musculus with 30 samples.

Results

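The nucleoside diphosphate kinase (Nme) family was described in nuclear RNA of mouse embryonic stem (ES) cells in which SRCAP, the ATPase of the remodelling complex that places the histone variant H2A.Z, can be degraded. The members were 6 listed genes, Nme1, Nme2, Nme3, Nme4, Nme6 and Nme7, of 55401 genes in each count table. The list was chosen on the levels of Nme7, which were lower after IAA in cells carrying either the wild-type or the mutated form of SRCAP, so that the values of those 2 contrasts are given below as a description without a test. The auxin used throughout was indole-3-acetic acid (IAA, 500 µM), which triggers degradation of a protein that carries an auxin-inducible degron (AID) when the F-box protein Tir1 is present.

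The 30 libraries formed 15 conditions with 2 replicates each, held in 4 count tables. CGR8, the parental ES cell line without a degron, was left untreated or received IAA for 4 h. SYAT carries SRCAP-YPet-AID and OsTir1 expressed from an EF1a promoter. A single homozygous knock-in clone of CGR8 was transduced with OsTir1, selected with puromycin and sorted for cells that lost YPet under IAA. SYAT cells were kept as a control or given IAA, with samples at 2, 4, 6 and 8 h. SYAT cells were also sorted in early G1 (EG1) or late G1 (LG1) by DNA content and a fluorescent mitotic degron, with or without 1 h of IAA. In the last experiment, SYAT cells with a lentiviral doxycycline-inducible SRCAP-mCherry, either wild type (wtSRCAP) or mutated in its ATPase domain (cdSRCAP), received doxycycline for 24 h at 1 µg/mL, with or without IAA for 4 h. Each of these lines was 1 clone, and its cells were sorted to high and matched mCherry levels right before use. All control SYAT, wtSRCAP and cdSRCAP cells were held in the Tir1 inhibitor auxinole (200 nM in the sample labels, with a larger unit, micromolar, in the methods). The IAA samples of these lines have no auxinole in the labels. Their controls and IAA samples thus differ in both compounds, whose effects cannot be told apart. All cells were grown in medium with serum and leukemia inhibitory factor for the experiments.

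Nucleoside diphosphate kinases pass the terminal phosphate of a nucleoside triphosphate, mostly ATP, to a nucleoside diphosphate through a phosphorylated histidine, and so keep up the pools of GTP, CTP, UTP and deoxynucleotides. Nme1 and Nme2 encode the abundant cytosolic enzymes, Nme3 encodes a form anchored at the outer mitochondrial membrane, and Nme4 and Nme6 encode mitochondrial forms. Nme7 encodes a divergent protein with a pair of kinase domains that is found at the gamma-tubulin ring complex, from which microtubules grow, and in the axoneme of cilia.

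The Nme genes lie on 4 chromosomes (mm10, GENCODE vM21). Nme7 (ENSMUSG00000026575.15) spans chr1:164304121-164437725 on the plus strand, overlaps the start of Blzf1 and the end of Atp1b1, both on the other strand, and shares 13.0% of its exon bases with genes of the other strand. Nme6 (ENSMUSG00000032478.14) spans chr9:109832749-109843116 on the plus strand, and Nme4 (ENSMUSG00000024177.9) spans chr17:26091734-26095602 on the minus strand. Neither shares an exon base with another gene. Nme1 (ENSMUSG00000037601.11, chr11:93956979-93968521) and Nme2 (ENSMUSG00000020857.11, chr11:93949814-93956259) are neighbours on the minus strand and share 12.5% and 48.9% of their exon bases with the readthrough gene Gm20390. Nme3 (ENSMUSG00000073435.10, chr17:24896500-24897522) shares 99.7% of its exon bases with Mrps34 and Mapk8ip3. How reads over such shared bases were assigned is not given in the sources used here, so the values of Nme3 in particular, and in part those of Nme2, are uncertain.

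The promoters of Nme7 and Nme6 are shown because these were the members that were lower after IAA in the time course. Both are the 250 bases before the annotated transcript start, 5′ to 3′, from RefSeq (GRCm38.p6), with the matches to 7 searched motifs in capitals on either strand. These were CCAAT (the CCAAT box), TTCCGG and ACTTCC (parts of the motif of ETS factors), CACGTG (the E-box), GGGCGG (the GC box), TGCGCA (part of the NRF1 motif) and TGACGTCA (the cAMP response element). Overlapping matches of ACTTCC with TTCCGG form one run of capitals, and GGAAGT is a match of ACTTCC on the minus strand.
Nme7, chr1:164307422-164307671, plus strand: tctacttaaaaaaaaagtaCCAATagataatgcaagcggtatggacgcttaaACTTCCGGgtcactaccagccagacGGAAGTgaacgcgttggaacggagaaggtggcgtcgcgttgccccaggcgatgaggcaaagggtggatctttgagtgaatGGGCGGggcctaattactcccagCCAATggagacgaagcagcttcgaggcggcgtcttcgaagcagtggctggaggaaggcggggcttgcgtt
Nme6, chr9:109832544-109832793, plus strand: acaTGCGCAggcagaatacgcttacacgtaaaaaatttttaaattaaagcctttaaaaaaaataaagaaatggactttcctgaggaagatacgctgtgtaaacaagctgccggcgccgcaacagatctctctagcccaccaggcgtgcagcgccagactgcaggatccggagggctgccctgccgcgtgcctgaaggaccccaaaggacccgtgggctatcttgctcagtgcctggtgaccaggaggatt
The RefSeq starts, 164307672 for Nme7 and 109832794 for Nme6, lie inside the GENCODE spans given above. The Nme7 window therefore lies within the span of Nme7, and the Nme6 window partly within that of Nme6. The Nme7 window also holds the annotated start of Blzf1, at 164307489 on the minus strand. It carries CCAAT 231 and 70 bases before the start, and this motif is found in 33.8% of 32851 RefSeq promoter windows of the same length. TTCCGG (12.0% of windows), ACTTCC (19.7%) and GGGCGG (32.7%) were also found in the Nme7 window. The only match in the Nme6 window was TGCGCA (6.43% of windows), 247 bases before the start. The 2 windows had no searched motif in common.

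Exon columns summed to between 12236493 and 60214521 counts per library, and intron columns to between 2006573 and 32872563. In the time course and in EG1 the intron columns were as large as the exon columns, 1.05 and 1.15 times their sum. There, 53.1% and 44.7% of the genes that consist of 1 exon, and have 20 or more exon counts in each library, held intron counts too, whereas 1 of 1862 did in CGR8, 2 of 2085 in LG1 and 1 of 1069 in the wtSRCAP and cdSRCAP cells. Intron columns of the time course and EG1 thus contain reads from exons. All 10 ES cell marker genes checked were expressed, with a summed level of 1918 to 5305 CPM (read counts scaled by library size and its TMM factor). The summed levels of the marker lists of fibroblast feeders (5 genes), primitive endoderm (5), trophoblast (5) and neural and mesoderm cells (4) stayed between 4.95 and 46.8 CPM, and 2 genes of each list, among them Postn, Sox17, Elf5 and Mesp1, had a median under 1 CPM. CGR8 control replicate 1, SYAT IAA 6 h replicate 2 and wtSRCAP IAA replicate 1 each correlated least with the other libraries of its table (median r of 0.962, 0.968 and 0.943 in exons). Values of the members that rest on these libraries are also given without them. Fewer cells of a type and less RNA per cell cannot be told apart in these bulk samples.

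The first question was how much of each family member ES cells hold without IAA. Per kilobase of exon, Nme1 was the most abundant in the CGR8, SYAT, wtSRCAP and cdSRCAP controls, followed by Nme4, Nme2, Nme6, Nme7 and Nme3. In SYAT controls the levels were 35.8 ± 2.81 CPM per kb for Nme1 (mean ± SD, n = 2), 17.9 ± 0.380 for Nme4, 13.8 ± 1.90 for Nme2, 7.81 ± 0.133 for Nme6 and 2.72 ± 0.314 for Nme7. No 2 neighbours in this order overlapped between their replicates in these 4 groups. Nme1 therefore made up 45.9% of the summed SYAT level of the family, and Nme7 made up 3.49%. In sorted cells Nme4 came first, at 21.2 ± 1.74 CPM per kb in EG1 and 22.2 ± 1.40 in LG1, and Nme1 second, at 18.7 ± 6.06 and 19.8 ± 5.71. These 2 members overlapped between replicates there, since the Nme1 level was 14.4 and 23.0 CPM per kb in the 2 EG1 controls. The order of the remaining members was the same as in the other lines. Levels were divided by the full exon length, although Nme2 and Nme3 share much of theirs with other genes, so the place of Nme2 below Nme4 and that of Nme3 are uncertain. Levels were scaled within each table, so that a level is not compared between tables here.

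Nme3 was at or near 0 in every library, with 0 to 7 exon counts, and was not tested after the filter on low counts. It had 5 and 3 counts in the LG1 controls and 0 and 0 after IAA, which are at or close to the 3 counts that a count of 0 allows. Of the relatives outside the list, Nme5, Nme8 and Nme9, which serve motile cilia and sperm, had medians under 0.2 exon CPM. Gm20390 was at 0 in every exon column. Rp2, which encodes a ciliary GTPase-activating protein with a kinase-like domain, was expressed at 5.05 to 22.4 CPM, and its log2 fold changes in the exon columns ranged from -0.21 to 0.21 in the SYAT time course (adjusted p of 0.69 or more in edgeR).

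**Figure D1:**
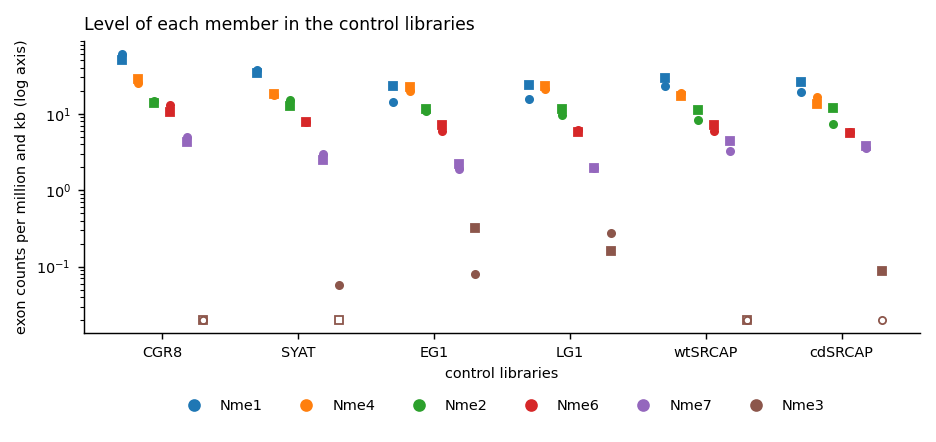
Exon CPM per kb (log axis) of the 6 members in the control libraries of each line, circles for replicate 1 and squares for replicate 2, with open symbols at the bottom for a count of 0. Nme1 and Nme4 are the highest and Nme7 is the lowest of the 5 members above 1 CPM per kb in each line, while Nme3 is near or at 0.

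The time course asked how RNA changes as SRCAP is lost in SYAT cells. Nme7 and Nme6 were lower than control in both libraries of every IAA time, and lowest at 8 h, whereas Nme1, Nme2 and Nme4 stayed close to control. Nme4 lay above both controls in both libraries at 2 and 4 h, at 114% to 118% of the control mean. How many of all genes separate in this way was not counted, so a lack of overlap is a description only, here and below. No member passed the threshold (absolute log2 fold change over 0.5 and an adjusted p under 0.05 in the edgeR fit). All 4 times share the same 2 control libraries.

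Nme7 exon levels were 17.3 and 14.7 CPM in the controls, 13.5 and 13.1 at 2 h, 9.38 and 10.1 at 4 h, 8.01 and 10.7 at 6 h, and 6.95 and 7.77 at 8 h. All treated libraries were below both controls, and the 8 h libraries were at 43.4% and 48.5% of the control mean. The log2 fold change of Nme7 was -0.26 at 2 h (95% interval -0.71 to 0.19, adjusted p = 1.0), -0.71 at 4 h (-1.17 to -0.26, adjusted p = 0.285), -0.77 at 6 h (-1.23 to -0.31, adjusted p = 0.126) and -1.12 at 8 h (-1.58 to -0.66, adjusted p = 0.0717). The intervals at 4, 6 and 8 h lay below 0, but no adjusted p was under 0.05. Without the 6 h library that stood apart, the 6 h value was -0.99, and without the other 6 h library it was -0.57. The 6 h value of Nme6, given next, was -0.52 without the library that stood apart.

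Nme6, the mitochondrial member, was at 16.5 and 16.1 CPM in the controls, 14.1 and 13.8 at 2 h, 12.7 and 9.68 at 4 h, 11.3 and 10.6 at 6 h, and 8.81 and 9.16 at 8 h. Its 2 controls were above all 8 treated libraries. The log2 fold changes were -0.23 (95% interval -0.64 to 0.19, adjusted p = 1.0), -0.54 (-0.96 to -0.13, adjusted p = 0.384), -0.57 (-0.99 to -0.15, adjusted p = 0.19) and -0.86 (-1.28 to -0.44, adjusted p = 0.0972). Nme6 thus had the same order of times as Nme7, with a smaller change at each.

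Whether the later levels differed from the early ones was tested after the values had been seen, as 8 h against 2 h in the same fit. The log2 difference was -0.86 for Nme7 (95% interval -1.31 to -0.40, adjusted p = 0.677) and -0.63 for Nme6 (-1.05 to -0.21, adjusted p = 0.81). Neither passed the threshold.

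The cytosolic kinases and Nme4 did not show this pattern. Over the 10 libraries, exon levels were 102 to 158 CPM for Nme1, 14.5 to 17.8 CPM for Nme2 and 26.3 to 33.6 CPM for Nme4. The log2 fold changes of Nme1 ranged from -0.05 at 8 h to 0.21 at 6 h, those of Nme2 from -0.06 to 0.04 and those of Nme4 from 0.07 to 0.23. The 6 h value of 0.21 for Nme1 rested on the library that stood apart, without which it was -0.0098, while Nme2 was then at -0.09 and Nme4 at 0.19. The 8 h intervals were -0.42 to 0.32 for Nme1, -0.48 to 0.35 for Nme2 and -0.28 to 0.43 for Nme4, so a change of the size seen for Nme7 lay outside them.

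The edgeR fit called few genes of any kind here, 0% of 19205 genes tested at 2 h, 0% at 4 h, 0.0677% at 6 h, 0.00521% at 8 h and 0% between 8 h and 2 h. At an unadjusted p under 0.05, 0 of 5 members tested were counted at 2 h and 2 of 5, Nme7 and Nme6, at 4, 6 and 8 h. By comparison, 752, 1745, 3099 and 2606 of all genes had such a p at 2, 4, 6 and 8 h. At 8 h, the Wald test of DESeq2 gave an adjusted p of 0.00228 for Nme7 and 0.0214 for Nme6 and called 2.53% of 15011 genes, so the call of both members depended on the tool. A fit with the replicate number as a block also called both at 8 h (adjusted p = 0.0216 for Nme7 and 0.0276 for Nme6) among 3.3% of all genes, and Nme7 at 6 h (0.0474) among 4.29%. A fit without a filter on low counts called Nme7 at 8 h (0.00854) among 1.25% of genes.

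Markers of other cell types also differed between the SYAT controls and IAA, at low levels. The summed neural and mesoderm markers were at 7.69 and 11.6 CPM in the controls and 13.1 to 20.6 CPM after IAA, with all 4 genes detected, and the 5 trophoblast markers were at 10.7 and 16.3 CPM and 15.3 to 25.9 CPM. The 10 ES cell markers were at 2295 and 2781 CPM in the controls and 2506 to 3914 CPM after IAA. The part of these differences in the values of Nme7 and Nme6 was not tested.

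**Figure D2:**
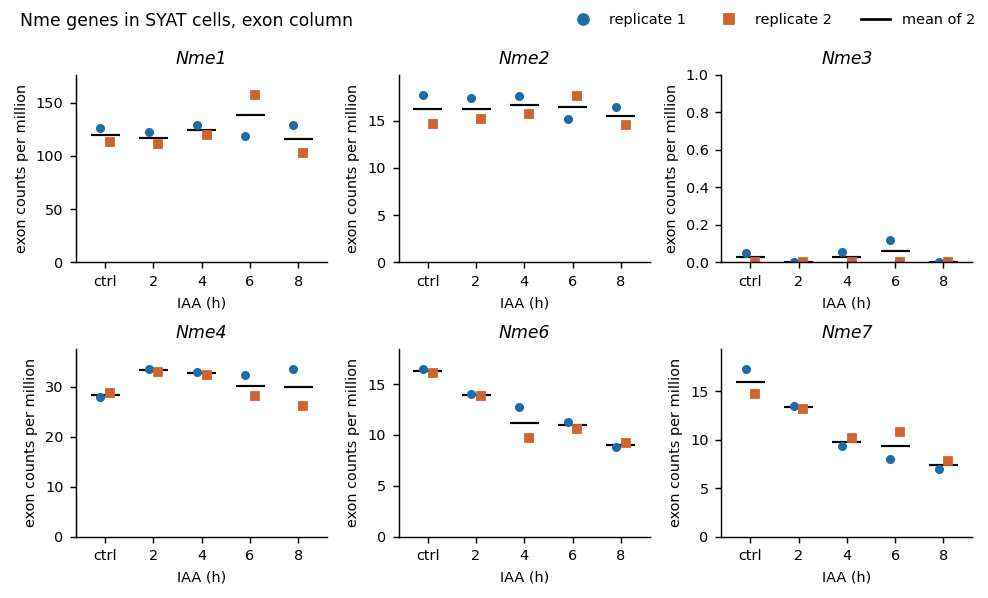
Exon CPM of the 6 members in each SYAT library (ctrl, control) against hours of IAA, circles for replicate 1, squares for replicate 2 and a bar for their mean, with the axis starting at 0. Nme7 goes from a control mean of 16.0 to 7.36 CPM at 8 h and Nme6 from 16.3 to 8.99, while Nme1, Nme2 and Nme4 end near where they began.

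The intron column of Nme7 was as low at 2 h as at 8 h. It held 43.6 and 43.7 CPM in the controls, 24.4 and 26.3 at 2 h, 19.6 and 29.3 at 4 h, 27.2 and 24.3 at 6 h, and 16.8 and 32.3 at 8 h. Both controls were above all 8 treated libraries, and the 2 replicates at 4 h and at 8 h lay far apart. The log2 fold changes were -0.78, -0.84, -0.76 and -0.83 (SE 0.31 at each time), with adjusted p-values of 0.93, 0.44, 0.317 and 0.306. Replicate 1 or 2 decided the 8 h value, which was -0.44 without the first and -1.36 without the second. Between 8 h and 2 h the intron column differed by -0.05 (95% interval -0.76 to 0.67, adjusted p = 1.0). Without the 6 h library that stood apart, the 6 h value was -0.68. Because these columns also hold reads from exons, the exon counts were subtracted, which gave -1.26, -1.12, -0.90 and -1.10 at the 4 times. That step takes every exon read to be in the intron column. Of the nonzero intron values of genes with 1 exon, only 52.5% equalled the exon count, so the subtracted values are not corrected intron levels. The edgeR fit called 0%, 0%, 0.0136% and 0.00679% of 14719 genes in the intron columns at 2, 4, 6 and 8 h, and 0.00679% between 8 h and 2 h, none of them a member.

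No other member could be followed in the time course introns. Nme4 and Nme6 had intron counts of 0 in all time course and EG1 libraries, although they held 11 to 164 in CGR8, LG1, wtSRCAP and cdSRCAP libraries. Nme2 and Nme3 were at 0 in all intron columns and Nme1 had 0 to 4 counts.

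In CGR8 cells, which lack the degron, 4 h of IAA tested the compound itself. Neither CGR8 group has auxinole in the labels, so the absence of auxinole from the IAA samples of the other lines was not covered. Nme7 exon levels were 29.2 and 25.4 CPM in the controls and 25.0 and 24.4 CPM with IAA, a log2 fold change of -0.14 (95% interval -0.50 to 0.21, adjusted p = 0.81). The levels did not overlap, and the difference was -0.02 without the control library that stood apart. Nme6 was at 27.4 and 22.3 CPM in the controls and 23.7 and 25.2 CPM with IAA, which overlap (log2 fold change -0.02, interval -0.40 to 0.36). Nme1 (-0.19), Nme2 (-0.30, interval -0.69 to 0.09) and Nme4 (0.11) did not pass the threshold either, and 0.00988% of 20250 genes were called. Without the library that stood apart, Nme6 was at 0.15, Nme1 at -0.05, Nme2 at -0.23 and Nme4 at 0.05. The intron column of Nme7 held 176 and 176 CPM in the controls and 180 and 158 CPM with IAA (log2 fold change -0.06, interval -0.39 to 0.27), with 0.022% of genes called. The Nme4 intron column was at a log2 fold change of 0.61 (interval -0.14 to 1.35) and that of Nme6 at 0.19 (-0.64 to 1.01). In these introns, the library that stood apart moved Nme7 by little (-0.06 without it) and turned Nme6 to -0.11, with Nme4 at 0.64. The summed neural and mesoderm markers were at 23.5 and 25.4 CPM in CGR8 controls and 31.8 and 33.0 CPM with IAA, without overlap, and their part in these values was not tested. CGR8 and SYAT counts came in separate tables, so their responses were not tested against each other.

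IAA for 1 h in sorted cells asked how early the RNA changes after mitosis and later in G1. For these cells the threshold of the study was used, an absolute log2 fold change over 0.25 and an unadjusted p under 0.05. The intron column of Nme7 fell in EG1, from 48.6 and 45.5 CPM to 30.3 and 32.7 CPM, a log2 fold change of -0.58 (95% interval -0.96 to -0.20, adjusted p = 1.0). Both treated libraries were below both controls, at 64.5% and 69.5% of the control mean. It was the only member called in EG1 or LG1 by the fit without a replicate block, where 2.28% of the EG1 introns were called, and the call was lost without EG1 control replicate 1 (-0.51) or EG1 IAA replicate 1 (-0.52). Nme7 exons in EG1 were at 11.1 and 12.8 CPM in controls and 10.1 and 10.4 CPM after IAA, with a log2 fold change of -0.22 (interval -0.58 to 0.14).

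In LG1 the Nme7 intron column was at 87.8 and 95.6 CPM in controls and 76.0 and 73.3 CPM after IAA, a log2 fold change of -0.30 (95% interval -0.67 to 0.08). The treated libraries lay below the controls without passing the threshold, which 3.94% of genes in the LG1 introns passed. With the replicate number as a block, Nme7 (-0.30) and Nme6 (-0.78) both passed it in LG1 introns, among 9.02% of genes. The same-numbered libraries of the sorted cells deviated together in every pair of conditions, by a correlation of 0.141 to 0.638 in introns and 0.372 to 0.586 in exons. The LG1 and EG1 responses of the Nme7 intron column were 0.28 apart. The intron columns of the 2 phases were made differently, so this value cannot compare the phases. The Nme6 intron column in LG1 was at 11.3 and 9.89 CPM in controls and 5.56 and 6.86 CPM after IAA (log2 fold change -0.77, interval -1.57 to 0.03). Nme7 exons in LG1 were at 11.3 and 11.4 CPM in controls and 11.1 and 12.3 CPM after IAA (log2 fold change 0.04, interval -0.31 to 0.40).

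In the exon columns no member was called in EG1 or LG1, where 1.22% and 1.02% of genes were, and no member had a p under 0.05. Between the LG1 and EG1 controls, Nme7 exons differed by -0.07 (interval -0.43 to 0.28), Nme6 by -0.14 (-0.55 to 0.27) and Nme1 by 0.08 (-0.67 to 0.83), with 0% of 21020 genes called by edgeR at an adjusted p and 303 at an unadjusted p under 0.05. Intron levels of EG1 and LG1 were not compared, because the columns of the 2 phases were made differently, as the single-exon genes show.

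**Figure D3:**
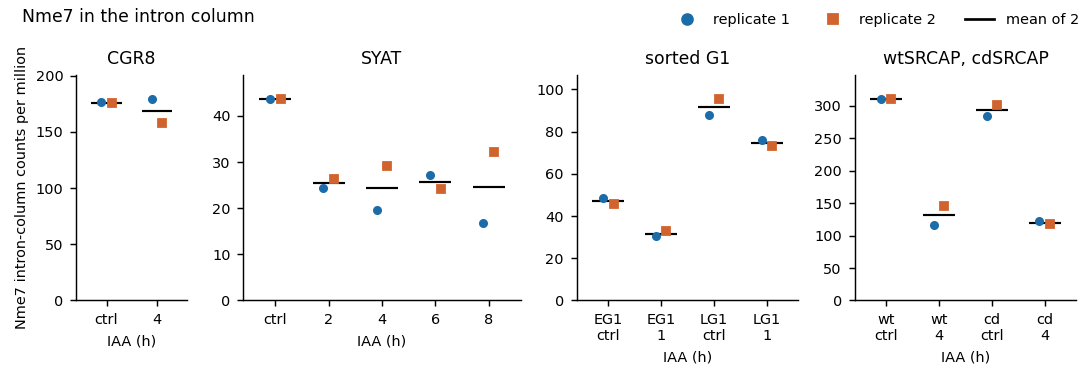
Nme7 CPM in the intron column by library and hours of IAA (ctrl, control) in the 4 tables, circles for replicate 1, squares for replicate 2 and a bar for their mean, each panel on its own axis from 0. The treated SYAT, EG1, LG1, wtSRCAP and cdSRCAP libraries lie below their controls, and the CGR8 libraries overlap.

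In wtSRCAP and cdSRCAP cells, IAA removes the endogenous SRCAP while the induced form is present, and the comparison of the forms asks what the ATPase adds. The response to IAA chose Nme7 and is therefore described without a test. The Nme7 intron column went from 310 and 311 CPM to 117 and 146 CPM in wtSRCAP cells, a log2 fold change of -1.24, and from 285 and 301 CPM to 122 and 117 CPM in cdSRCAP cells, one of -1.29. Nothing overlapped between control and IAA in either line, and the treated libraries kept 37.6% to 46.9% of the control mean. Its exon column went from 19.2 and 25.6 CPM to 12.3 and 16.8 CPM in wtSRCAP cells (-0.62) and from 20.8 and 22.4 CPM to 11.5 and 16.5 CPM in cdSRCAP cells (-0.62). Without the library that stood apart, the wtSRCAP value was -0.39 in exons and -1.10 in introns. Without the other IAA library, it was -0.84 and -1.42.

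Nme6 was also lower after IAA in both lines. Its exon levels went from 12.4 and 14.9 CPM to 7.71 and 9.82 CPM with wtSRCAP (-0.63) and from 12.0 and 11.7 CPM to 7.37 and 7.54 CPM with cdSRCAP (-0.67), with no overlap in either line. Its intron column was at log2 fold changes of -0.70 and -1.33. Nme1 (0.30 and 0.18), Nme2 (-0.05 and 0.01) and Nme4 (0.00 and -0.09) had exon changes under 0.31 in size. Without the wtSRCAP library that stood apart, Nme6 was at -0.45 in exons and -0.57 in introns, Nme1 at 0.41, Nme2 at 0.25 and Nme4 at 0.05. The summed fibroblast markers went from 5.12 and 5.31 CPM to 12.1 and 12.1 CPM after IAA with wtSRCAP, and from 6.48 and 7.36 CPM to 8.39 and 8.68 CPM with cdSRCAP, with 1 of the 5 genes at 0 in each group. The neural and mesoderm markers went from 8.72 and 11.5 CPM to 16.1 and 18.7 CPM, and from 12.0 and 14.99 CPM to 20.2 and 26.7 CPM. Those of trophoblast went from 4.95 and 7.12 CPM to 8.14 and 18.8 CPM, and from 6.33 and 6.58 CPM to 11.7 and 12.9 CPM. The ES cell markers also went up with wtSRCAP, from 3092 and 3645 CPM to 4034 and 4186 CPM. With cdSRCAP they overlapped, at 3547 and 4752 CPM in controls and 4468 and 5305 CPM after IAA. The primitive endoderm markers overlapped in both lines. The part of these differences in the values of Nme7 and Nme6 was not tested. Of all genes, 0.00523% with wtSRCAP and 0% with cdSRCAP were called in exons, and 0.299% and 0.236% in introns.

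In controls no difference in Nme levels between the 2 forms of SRCAP passed the threshold. After IAA none of the members that were tested passed it, and Nme7 was not tested there. In controls, cdSRCAP cells differed from wtSRCAP cells by -0.05 for Nme7 exons (95% interval -0.69 to 0.58) and by -0.08 for its intron column (-0.42 to 0.25). The levels after IAA chose Nme7, so its differences there, -0.06 in exons and -0.14 in introns, are described without a test. The difference in Nme1 was -0.23 (-0.75 to 0.28) in controls and -0.36 (-0.87 to 0.16) after IAA, and that in Nme4 was -0.26 (-0.74 to 0.23) and -0.34 (-0.83 to 0.14), none of which passed the threshold. That in Nme6 was -0.21 (-0.80 to 0.39) and -0.24 (-0.84 to 0.36) in exons. Of all genes, 0% of exons in controls, 0.00523% of exons after IAA, 0.102% of introns in controls and 0.0157% of introns after IAA were called. Without the wtSRCAP library that stood apart, the differences after IAA were -0.30 for Nme7, -0.44 for Nme6, -0.49 for Nme1, -0.27 for Nme2 and -0.41 for Nme4 in exons, and -0.27 for Nme7 in introns. The log2 fold changes of Nme7 with IAA were -0.01 apart between the forms in exons and -0.06 apart in introns, a likeness that the choice of Nme7 for being lower with both forms favoured and that was not tested.

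**Figure D4:**
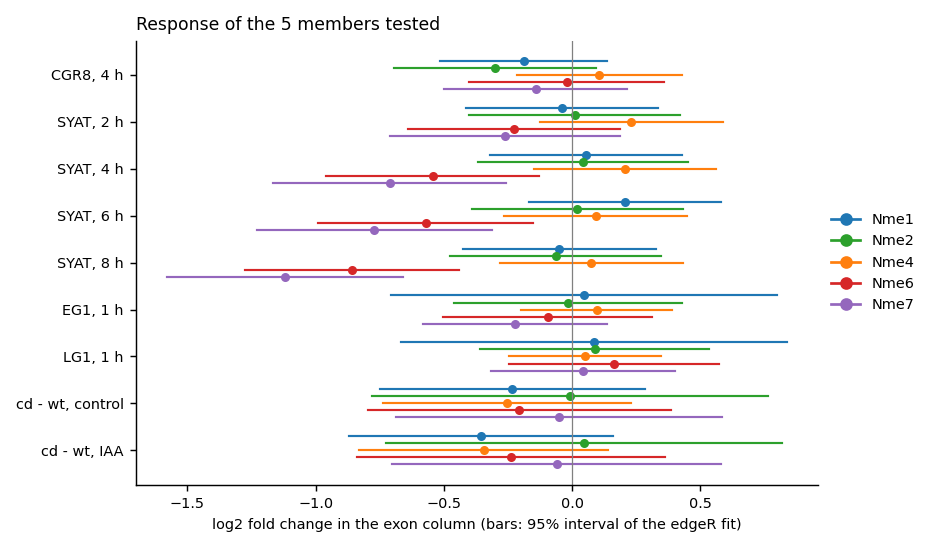
Log2 fold change in the exon column of the 5 members tested, for IAA against control in CGR8, SYAT and sorted cells and for cdSRCAP minus wtSRCAP, as points with the 95% interval of the edgeR fit. Of those drawn, the intervals that do not reach 0 are those of Nme6 and Nme7 at 4, 6 and 8 h in SYAT cells, with Nme7 the lowest at -1.12. The Nme7 interval for cdSRCAP minus wtSRCAP after IAA rests on values that chose Nme7 and is not a test.

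Genes beside the members were followed next. Ccdc181, a microtubule-binding protein of cilia and flagella, lies upstream of Nme7, beyond the end of Blzf1. Blzf1 encodes a Golgi protein and starts head-to-head with Nme7. Ccdc181 exon levels in SYAT cells were 4.5 and 4.34 CPM in controls and 1.62 and 1.48 CPM at 8 h, and the log2 fold changes were -0.27, -0.81, -1.35 and -1.51 at 2, 4, 6 and 8 h (interval -2.12 to -0.90 and adjusted p = 0.0716 at 8 h). Like Nme7, Ccdc181 was lower at each later time. Blzf1 took another course, with 20.4 and 24.1 CPM in controls, 12.3 and 17.4 CPM at 2 h and 22.1 and 20.2 CPM at 8 h. Its log2 fold changes were -0.58 at 2 h (interval -1.05 to -0.11), -0.51 at 4 h (-0.97 to -0.04), -0.47 at 6 h (-0.94 to -0.01) and -0.07 at 8 h (-0.54 to 0.39), none with an adjusted p under 0.05. Atp1b1, the beta subunit of the sodium pump, whose end overlaps that of Nme7 on the other strand, was at 0.27, 0.55, 0.63 and 0.54 (interval 0.24 to 0.84 and adjusted p = 0.127 at 8 h).

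In EG1 the Ccdc181 intron column rose by 1.84 on the log2 scale (interval 0.76 to 2.92, adjusted p = 1.0), from 10 and 16 counts to 36 and 38. In CGR8 exons Ccdc181 was at -0.37 (interval -0.90 to 0.17), Blzf1 at 0.28 (-0.06 to 0.63) and Atp1b1 at 0.19 (-0.14 to 0.51). After IAA in wtSRCAP and cdSRCAP cells the exon log2 fold changes were -0.78 and -0.82 for Ccdc181, -0.46 and -0.39 for Blzf1, and 0.71 and 0.47 for Atp1b1.

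**Figure D5:**
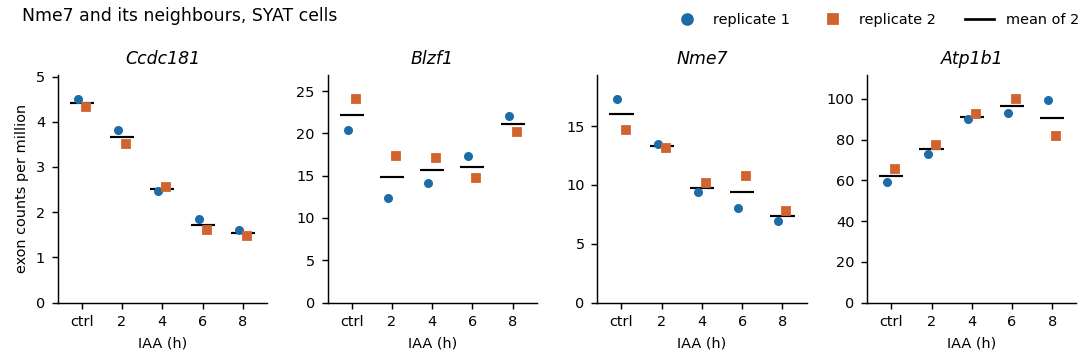
Exon CPM of Ccdc181, Blzf1, Nme7 and Atp1b1, in their order on the chromosome, in each SYAT library (ctrl, control) by hours of IAA, circles for replicate 1, squares for replicate 2 and a bar for their mean, each axis from 0. Nme7 and Ccdc181 are lowest at 8 h, Blzf1 is back at 22.1 and 20.2 CPM by then, and Atp1b1 is above its controls at every time.

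The genes around the family were described by 3 lists. Of 45 genes of nucleotide kinases and nucleotide synthesis, 43 were tested in SYAT exons and none was called at any time, with 2, 2, 6 and 1 at an unadjusted p under 0.05. Their median log2 fold change was 0.04, 0.02, 0.07 and -0.03, next to 0.00, 0.02, 0.01 and 0.03 over all genes. Tk2, the mitochondrial thymidine kinase, had the smallest p of the list at every time and was at -0.65, -0.93, -0.70 and -0.88 (interval -1.38 to -0.39 and adjusted p = 0.128 at 8 h). Uck1, a uridine and cytidine kinase, was at -0.58 at 2 h and 4 h (intervals -1.04 to -0.11 and -1.05 to -0.11), and Adss, of AMP synthesis, at 0.41 at 6 h (0.11 to 0.72). In LG1 Tk2 fell by 0.85 on the log2 scale in introns (interval -1.38 to -0.32), and Dguok, the mitochondrial deoxyguanosine kinase, fell by 0.46 in exons (-0.89 to -0.03), both with an adjusted p of 1.0. In CGR8 cells the smallest p belonged to Ak4, a mitochondrial adenylate kinase (0.42 in exons, interval 0.11 to 0.73, adjusted p = 0.54).

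Of the gamma-tubulin ring complex, where Nme7 protein is found, 12 genes were tested in SYAT exons and none was called. At 2, 4, 6 and 8 h, 9, 11, 12 and 10 of the 12 were below 0, with a median of -0.11, -0.27, -0.36 and -0.29. The median over all genes was 0.00, 0.02, 0.01 and 0.03. The share of all genes below 0 was not counted, and the list was not tested as a set. Mzt2, a small subunit, was at -1.03 at 8 h (interval -1.56 to -0.50, adjusted p = 0.108) and Nedd1, which recruits the complex to centrosomes, at -0.66 at 6 h (-1.13 to -0.20) and -0.62 at 8 h (-1.08 to -0.16). In CGR8 exons 6 of the 12 were below 0, with a median of -0.0030, next to -0.0003 over all genes. In LG1 introns Tubgcp6 fell by 0.80 on the log2 scale (interval -1.33 to -0.27) and Tubgcp4 by 0.64 (-1.20 to -0.08), both core subunits, and in EG1 exons Lgals3bp, a secreted glycoprotein, rose by 0.78 (0.12 to 1.44), each with an adjusted p of 1.0.

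Of 11 partners of the mitochondrial members, all tested in SYAT exons, none was called. The median was -0.09, -0.16, 0.06 and -0.11, next to 0.00, 0.02, 0.01 and 0.03 over all genes. Opa1, the fusion GTPase of the inner mitochondrial membrane, was at -0.47, -0.62 and -0.66 at 4, 6 and 8 h (interval -0.94 to -0.39 and adjusted p = 0.0717 at 8 h). Mfn2, which fuses the outer membrane, was at -0.51, -0.43 and -0.48 (interval -0.79 to -0.17 and adjusted p = 0.169 at 8 h). The Opa1 intron column fell by 0.65 in LG1 (interval -1.08 to -0.23, adjusted p = 1.0). In CGR8 exons Fastkd2, a mitochondrial RNA-binding protein, was at 0.67 (interval 0.25 to 1.08, adjusted p = 0.54).

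The genes with exon patterns most like that of Nme7 were sought over the 30 libraries, among 17481 genes passing the filter in all 4 tables, after centring each table on its own mean. They were Wdr11 (Pearson r = 0.938), Fto, an RNA demethylase (0.929), Cdk5, a kinase of postmitotic neurons (0.925), Vps35l, of endosomal recycling (0.922), and Trappc11, of vesicle transport (0.907). Within the time course alone these 5 had r between 0.925 and 0.988. Within the sorted cells they ranged from -0.15 to 0.78. Nme6 came 13th with r = 0.879, and Nme2 (0.337), Nme1 (0.0418) and Nme4 (-0.0789) were far below. These points share treatment groups and libraries, so the correlations are a description only.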

How the data were processed

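Nuclear RNA from biological duplicates was sequenced as directional paired-end libraries. Per the labels and methods, the authors used STAR (mm10) for alignment and featureCounts for GENCODE vM25 exons and introns (gene body minus exons). SAMtools 1.10, Picard and DESeq2 are also named in the submitters' processing notes. The deposited values are whole-number counts per gene, one exon and one intron column per library, not normalized. Replicates are labelled by number only. Tables of the authors' own comparisons (4) hold log2 fold changes and p-values and were not used.

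Each table and column type was fitted in edgeR 4.0.16 (R 4.3.3; glmQLFit and glmQLFTest, TMM, filterByExpr with a minimum count of 10 and a minimum total of 15) over all genes, with Benjamini-Hochberg adjustment and tests that are two-sided. The fits were run on simulated counts with known changes. The simulation used a single fixed spread for all genes, so it does not show how the fits perform at the spread of these data. DESeq2 1.42.0, other size factors, no filter, only the 2 groups compared, a replicate block, exon counts subtracted from introns, and leaving out each library were alternatives. CPM were divided by exon kilobases for levels. The p-values set each difference against the spread between replicates, estimated over all groups of a table and moderated across its genes. With 2 replicates a group, they speak only for these samples of these lines. All 6 members were named, of each list the called genes or else those with the smallest p, the neighbours of the members, and the 5 genes most correlated with Nme7. Symbols and coordinates came from GENCODE vM21, where 55141 of 55401 identifiers matched. The members and lists were chosen with earlier results of these data known.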

Additional observations from a re-analysis of the deposited data

How the results depend on the processing

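Of 116 counts of members called under alternatives other than leaving out a library, 107 kept the main count. Of 179 log2 fold changes of Nme7 and Nme6, 170 counted as unchanged. For most, this meant the same direction and side of the threshold. For the untested responses to IAA in wtSRCAP and cdSRCAP cells and their difference, it meant the same direction and a shift below the SD between replicates. In SYAT exons 0 members were called, against 1 at 6 h with the replicate block, and at 8 h 1 without a filter, 2 with DESeq2 and 2 with the replicate block. In LG1 exons 0 were called, against 1 (Nme3) without a filter (among 372 of 36790 genes) and 1 with DESeq2 (83 of 36790). In LG1 introns 0 were called, against 1 without a filter (among 746 of 25517 genes), 2 with the replicate block (1573 of 17441) and 1 with only the 2 groups (349 of 13330). IAA against control in wtSRCAP and cdSRCAP cells chose the members, so its calls were not followed. The replicate block changed no other count of members. The deviations of same-numbered libraries correlated by 0.0736 and 0.0596 in CGR8 exons and introns, by -0.0359 to 0.589 and 0.0013 to 0.639 in SYAT, by 0.372 to 0.586 and 0.141 to 0.638 in sorted cells, and by 0.259 to 0.376 and 0.0759 to 0.296 in wtSRCAP and cdSRCAP cells. No label ties a number to a shared day or batch. The Nme7 intron change between 8 h and 2 h reversed to 0.16 after subtracting exons. The causes were not tested.

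Leaving out 1 library kept 98 of 100 counts and, by the same rules, 138 of 160 log2 fold changes. Counts ranged from 0 to 1 in EG1 introns. The Nme7 changes that reversed, none of them called, ranged from -0.15 to 0.023 (CGR8 introns), -0.57 to 0.34 (SYAT introns, 8 h against 2 h), -0.016 to 0.12 (LG1 exons), -0.19 to 0.035 (LG1 against EG1 exons), -0.26 to 0.17 and -0.34 to 0.16 (cdSRCAP against wtSRCAP exons, control and IAA), -0.28 to 0.20 (their responses, exons), -0.27 to 0.045 (introns, IAA) and -0.16 to 0.13 (responses, introns).

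Over all genes the counts called moved in SYAT exons from 13 to 885 without a filter, 566 with DESeq2 and 823 with the block at 6 h, and from 1 to 448, 380 and 634 at 8 h. In CGR8 exons they moved from 2 to 386, 120 and 500, in EG1 exons from 257 to 626, 147 and 1269, in LG1 exons from 214 to 372, 83 and 883, in wtSRCAP introns from 38 to 468, 185 and 292 (2 with only the 2 groups) and in cdSRCAP introns from 30 to 344, 163 and 320. In SYAT exons at 4 h they moved from 0 to 88, 115 and 76, and in SYAT introns DESeq2 called 61, 247, 512 and 456 at the 4 times, against 0, 0, 2 and 1. In EG1 and LG1 introns, 397 and 688 became 754 and 1573 with the block. Whether depth or the assignment of reads over shared bases keeps Nme3 at 0 to 7 counts was not tested.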
